A study of Drosophila melanogaster with 29 samples.

Results

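A pair of proteins linked to Polycomb silencing was compared by the transcripts measured after the depletion of each. Cells depleted of dKDM2 (3 arrays) were set directly against cells depleted of PH (3 arrays), which makes 6 of the 29 arrays of the series. These arrays were chosen by their labels, and every non-control probe set naming exactly 1 gene entered. That gave 13647 of 18769 non-control probe sets and 11678 genes tested.

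All arrays measured total RNA of Drosophila S2 cells, an embryonic line with features of blood cells. dKDM2 or PH cells had been exposed for 4 days to double-stranded RNA (dsRNA) against the named protein. The other depletions, dRING, PC and PSC, had 3 arrays each. The Mock cells (14 arrays) were untreated, so all depletions share an exposure to dsRNA that Mock lacks, while the contrast of dKDM2 with PH does not carry it. Replicates are biological according to their titles, but no separate cultures are named, so p-values measure only the spread between these arrays.

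Polyhomeotic (PH) is a subunit of Polycomb repressive complex PRC1, which binds chromatin and helps keep developmental genes silent. The fly genome has neighbouring genes for it, ph-p and ph-d. dKDM2 is a histone demethylase that has been described in a complex with the PRC1 subunits dRING and PSC that lacks PH and PC. The direct comparison addresses which transcripts differ between the 2 dsRNA treatments, whose strength of depletion was not checked here.

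Values are log2 signals after quantile normalization, with a lowest value of 2.27 that held 41.8% of the deposited values. A difference is dKDM2 minus PH on this scale. It is followed by its standard error (SE), the fold and the adjusted p from limma. Genes with an adjusted p under 0.05 count as called. Where a group lies at the lowest value, the fold is a lower bound. Signals of different genes were not set against each other, because probe sets differ in brightness.

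The labels could be checked only in part. Probe sets naming Kdm2, ph-p or ph-d alone were not analysed here, so neither depletion was checked at its own transcript. Sce, the gene of dRING, had 4.58, 4.17 and 6.92 in dKDM2 cells and 5.18, 5.87 and 5.08 in PH cells, against a Mock mean of 8.04 ± 0.47 (SD, n = 14). Its values overlapped between both depletions (difference -0.16, SE 0.51, adjusted p = 1). Pc, the chromodomain subunit, differed by -0.22 (SE 0.53, adjusted p = 1). On the arrays labelled PSC the Psc transcript averaged 9.13, above the Mock mean of 6.77 and below the means of 10.24 in dKDM2 and 11.23 in PH cells, which were exposed to dsRNA as well. It was close to dRING (9.31) and PC cells (9.54), so the transcript does not settle that label. Among blood cell genes, srp, a GATA factor of the blood lineage, averaged 10.29 ± 0.06 in dKDM2 cells and 9.71 ± 0.11 in PH cells (n = 3 each). Hml, a marker of mature blood cells, averaged 3.09 ± 0.13 and 2.92 ± 0.15 there and 3.29 ± 0.15 in Mock, close to the lowest value.

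dKDM2 and PH depletion differed at 289 genes, of which 145 were higher and 144 lower in dKDM2 cells than in PH cells. That is 2.47% of all genes tested (1.24% higher and 1.23% lower), and 1867 genes had an unadjusted p under 0.05. By comparison, 3872 genes (33.2%) were called between dKDM2 and Mock and 4101 (35.1%) between PH and Mock, contrasts that share the Mock arrays. The median absolute difference was 1.26 among the 289 genes and 0.122 over all genes. A difference above 1 was reached by 172 of the called genes (1.47% of all genes), 92 higher and 80 lower. In 209 of the 289 the 3 dKDM2 arrays lay all above or all below the 3 PH arrays, a separation found in 13.6% of all genes (6.97% above, 6.61% below). With the replicate number as a block, which pairs the arrays, 609 genes were called (5.21%; 316 higher or 2.71% and 293 lower or 2.51%), all 289 among them. Without 1 array the balance of directions turned either way, from 355 higher and 166 lower without dKDM2 array 3 (68.1% higher) to 156 higher and 387 lower without PH array 3 (28.7% higher). Scaling also moved the counts. The values as deposited gave 477 calls (4.08%), 213 higher (1.82%) and 264 lower (2.26%), and median centring of the arrays gave 85 (0.728%), 31 higher (0.265%) and 54 lower (0.462%). The calls rest on a spread pooled over 29 arrays, and with the 6 arrays alone limma called 9 genes.

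**Figure D1:**
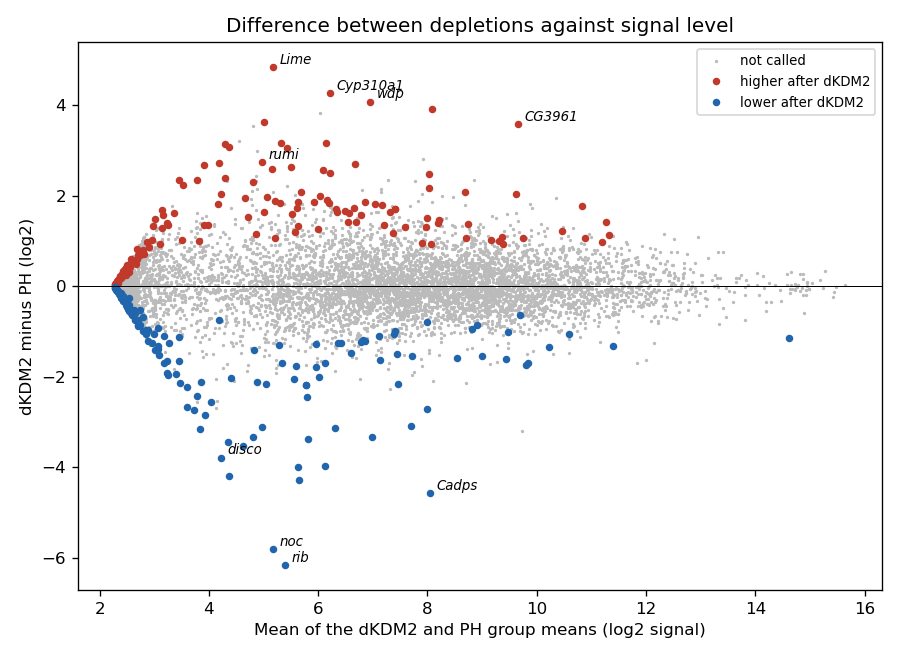
Difference between dKDM2 and PH (y axis, log2, dKDM2 minus PH) against the mean of the dKDM2 and PH group means (x axis, log2 signal) for the 11678 genes tested, with the called genes in colour. The 145 higher and 144 lower genes lie on both sides of 0, the highest called point is Lime at 4.84 and the lowest is rib at -6.17.

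Part of the calls lay between dim signals, where only small differences are possible. Of 5635 genes with both means below 3, 85 were called (38 higher and 47 lower, 1.51%), with no difference beyond 0.636. Both means of these genes lie between the lowest value and 3, so the small size of their differences follows from the definition of the class. Of 5531 genes with at least 1 mean above 4, 166 were called (90 higher and 76 lower, 3.00%). The genes were also split into 3 classes of 3892 or 3893 by mean level over all arrays. In the dimmest class, whose mean levels ran only from 2.27 to 2.31, 19 genes were higher and 25 lower. The middle class had 83 and 94, and the brightest 43 and 25. Classes of gene length, introns included, held 3865 or 3866 genes each. Of the shortest genes 26 were higher and 43 lower, with 41 and 35 in the middle and 77 and 64 among the longest.

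One group of transcripts was raised in PH cells and low in both dKDM2 and Mock cells, by group means. It held 21 called genes with a mean above 4 in PH cells and below 3 in dKDM2 and in Mock cells, and in 18 of them the dKDM2 and PH arrays did not overlap. Not all 21 were raised on every PH array: 1 had 6.77, 6.77 and 2.41 in PH cells and another 2.27, 5.17 and 6.19. A further gene had 5.11, 2.31 and 4.63 (mean 4.02), another 6.04, 3.69 and 2.44 (mean 4.06) and another 2.96, 5.26 and 4.88. All of these but the last lost their call in some fits that left out 1 array. In oc and elB, described below, 1 PH array was below 3 as well. The reverse, dKDM2 above 4 with PH and Mock below 3, was seen in 3 genes. These levels, 3 and 4, were set after the values were seen, so the counts are descriptions. In the same 21 genes the mean exceeded 4 in 1 after dRING depletion, in 2 after PC depletion and in 2 on the arrays labelled PSC. The genes were picked by their PH, dKDM2 and Mock means, so the lack of overlap largely follows from that choice. The share above 4 in the other depletions was not taken over all genes low in Mock, so these counts do not show that the group is particular to PH.

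The gene rib, 1 of the 21, encodes a BTB-domain transcription factor needed for the shaping of the trachea and salivary gland. It stood at 2.36, 2.27 and 2.31 in dKDM2 cells and at 8.19, 8.47 and 8.78 in PH cells, against 2.27 to 2.34 (median 2.27) in Mock. All PH arrays were far above all others, and rib had the largest difference of the 289 genes (-6.17, SE 0.08, 71.8-fold, adjusted p = 6.52e-27). This SE is smaller than the PH arrays' own spread (SD 0.29), because the pooled spread takes in groups at the lowest value. The same limit holds for the genes below that lie at or near the lowest value in most groups, such as CG8066 (PH SD 0.83). Their SE and adjusted p do not measure the spread of the PH arrays alone. The rib mean was 2.27 in dRING, 2.34 in PC and 2.27 on the PSC arrays.

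The gene noc encodes a zinc finger protein of the NET family, which acts in eye, leg and tracheal development. It was at 2.27 on all 3 dKDM2 arrays and at 7.94, 7.65 and 8.63 in PH cells, with all 14 Mock arrays at 2.27 (difference -5.81, SE 0.30, at least 56.0-fold, adjusted p = 1.47e-12). It averaged 3.19 in dRING and 4.64 in PC cells. Its paralogue and partner elB, named after its values were seen, had 2.30, 2.27 and 2.28 in dKDM2 cells and 5.36, 4.33 and 2.91 in PH cells, so 1 PH array was low (difference -1.91, SE 0.30, 3.76-fold, adjusted p = 0.000452). Its 3 probe sets ran from -1.91 to 0.45.

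The gene disco encodes a zinc finger factor of head and appendage development. Its level was 2.28, 2.27 and 2.41 in dKDM2 cells and 7.12, 4.60 and 6.61 in PH cells, against 2.27 to 3.04 (median 2.27) in Mock (difference -3.79, SE 0.39, 13.9-fold, adjusted p = 1.21e-06). The groups did not overlap, and PH array 2 was the lowest of the PH arrays. The same array was lowest for cad, the homeobox gene caudal of posterior patterning, with 2.27 on every dKDM2 array and 6.25, 4.30 and 5.71 in PH cells, against 2.27 to 2.32 (median 2.29) in Mock (difference -3.15, SE 0.37, 8.87-fold, adjusted p = 9.7e-06). Unlike rib, cad was also above 4 in dRING (mean 4.78) and PC cells (6.03), and it averaged 2.29 on the arrays labelled PSC.

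The homeobox gene oc, also called orthodenticle and needed for head development, was at 2.27 on all dKDM2 arrays and spread widely in PH cells, at 2.79, 5.27 and 6.76 (difference -2.67, SE 0.47, 6.37-fold, adjusted p = 0.00168). This SE understates the spread of the PH arrays, since the other groups lay at the lowest value. Without PH array 3 the oc difference was -1.76, still called. Mock lay at 2.27 to 2.28 (median 2.27), and dRING, PC and PSC arrays averaged 2.27 as well. The gene peb, also called hindsight, encodes a zinc finger factor of epithelial and blood cell development. It had 2.27, 2.92 and 2.27 in dKDM2 cells and 5.06, 4.69 and 4.39 in PH cells, against 2.27 to 2.29 (median 2.28) in Mock (difference -2.23, SE 0.13, 4.69-fold, adjusted p = 1.25e-11). It was fixed as a crystal cell marker, but the other measured markers of those cells were not called: lz averaged 2.28 and 2.34, PPO1 2.29 and 2.27, and PPO2 3.03 and 3.37 in dKDM2 and PH cells.

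**Figure D2:**
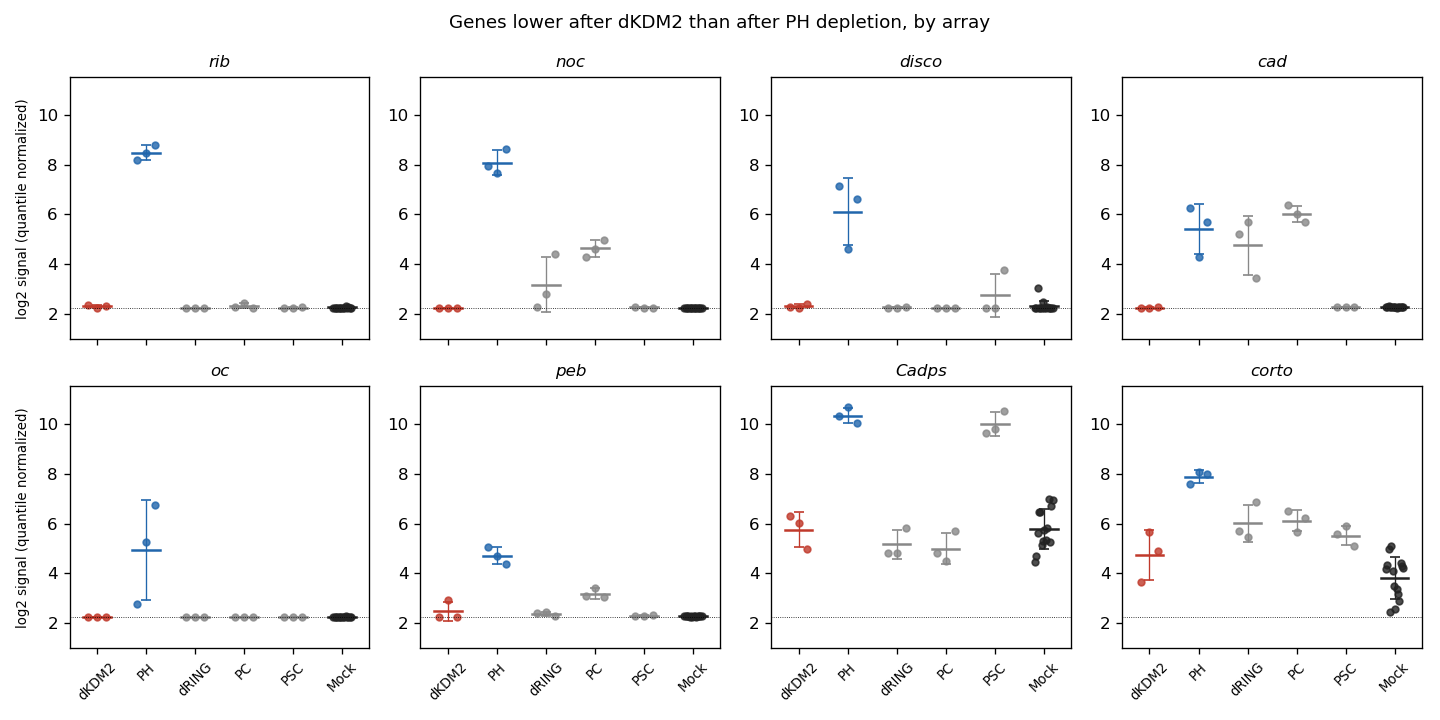
Log2 signal of 8 genes lower in dKDM2 than in PH cells, for each group from dKDM2 to Mock (points are arrays, bars the mean, whiskers the SD, the dotted line the lowest value). For rib, noc, disco, cad, oc and peb the dKDM2 and Mock points lie at or near the lowest value while PH points reach 4.30 to 8.78 (oc from 2.79). Cadps and corto are well above it in dKDM2 cells too.

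Cyp6w1, a cytochrome P450 gene of the same group, had 2.78, 2.72 and 2.38 in dKDM2 cells and 6.44, 6.21 and 5.55 in PH cells (difference -3.44, SE 0.23, 10.9-fold, adjusted p = 2.13e-10). The adenylyl cyclase gene Ac13E had 2.32, 3.90 and 2.36 and 6.88, 5.96 and 6.37 in these groups (difference -3.54, SE 0.25, adjusted p = 5.29e-10), and was also high on the arrays labelled PSC (mean 6.17). The second probe set of Ac13E differed by 0.01, so this value rests on 1 probe set. The gene CG8066 was at 2.27 on all dKDM2 arrays and at 5.61, 6.50 and 7.27 in PH cells (difference -4.19, SE 0.24, adjusted p = 1.25e-11).

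Other genes were lower in dKDM2 than in PH cells while clearly present in both. Cadps, which encodes a protein that primes dense-core vesicles for release, had 6.30, 6.01 and 4.97 in dKDM2 cells and 10.30, 10.65 and 10.03 in PH cells, against 4.44 to 7.00 (median 5.67) in Mock (difference -4.57, SE 0.57, 23.7-fold, adjusted p = 2.41e-05). The second Cadps probe set had a difference of 0, and the mean over both was -2.28. dKDM2 cells lay within the Mock range, and the arrays labelled PSC were high too (mean 9.98). The gene corto encodes a chromatin factor that interacts genetically with Polycomb and Trithorax group genes. It had 3.67, 5.64 and 4.91 in dKDM2 cells and 7.58, 8.07 and 7.99 in PH cells, against 2.47 to 5.09 (median 4.15) in Mock (difference -3.14, SE 0.61, 8.80-fold, adjusted p = 0.00443). In dRING, PC and PSC arrays corto averaged 6.02, 6.12 and 5.52, all between dKDM2 and PH. CROT, carnitine octanoyltransferase of fatty acid handling, was at 6.49, 6.84 and 5.84 in dKDM2 cells and at 8.47, 8.45 and 8.71 in PH cells (difference -2.15, SE 0.35, 4.45-fold, adjusted p = 0.000878).

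In the opposite direction, several genes higher in dKDM2 than in PH cells were at about the Mock level in dKDM2 cells. Lime, which encodes a zinc finger protein named for linking immunity and metabolism, had 7.89, 7.25 and 7.64 in dKDM2 cells and 2.89, 2.33 and 3.04 in PH cells, against 4.53 to 8.14 (median 6.80) in Mock. It had the largest positive difference of the genes whose arrays did not overlap (4.84, SE 0.67, 28.6-fold, adjusted p = 8.31e-05). dKDM2 cells lay within the Mock range and PH cells below it, and dRING, PC and PSC arrays averaged 5.22, 3.86 and 4.35.

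The cytochrome P450 gene Cyp310a1 followed, with 8.10, 8.46 and 8.49 in dKDM2 cells and 4.52, 4.80 and 2.93 in PH cells, against 6.90 to 9.95 (median 8.85) in Mock (difference 4.27, SE 0.57, 19.2-fold, adjusted p = 5.14e-05). CG3961 had 11.15, 11.59 and 11.59 in dKDM2 cells and 7.89, 8.03 and 7.66 in PH cells (difference 3.59, SE 0.57, 12.0-fold, adjusted p = 0.000547). For both genes dKDM2 cells were within the Mock range and PH cells below it. HisT had 5.31, 5.07 and 5.37 in dKDM2 cells and 2.52, 2.50 and 2.71 in PH cells, against 4.01 to 6.47 (median 5.46) in Mock (difference 2.68, SE 0.44, adjusted p = 0.000878). Lime, HisT and Axs were the 3 called genes with a mean below 3 in PH cells and above 4 in dKDM2 and Mock cells, and no gene showed the mirror image of this.

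Some transcripts were below Mock in both depletions but further below in PH cells. The gene rept encodes Reptin, an ATPase of chromatin remodelling complexes. It had 7.20, 6.31 and 7.22 in dKDM2 cells and 2.98, 4.59 and 3.63 in PH cells, against 7.35 to 10.21 (median 8.94) in Mock (difference 3.17, SE 0.65, 9.03-fold, adjusted p = 0.00703). All dKDM2 and PH arrays lay below the lowest Mock array, while dRING, PC and PSC arrays averaged 8.75, 8.40 and 8.39. The gene rumi encodes the glucosyltransferase that modifies the Notch receptor. It had 6.31, 6.67 and 6.06 in dKDM2 cells and 3.18, 3.15 and 4.49 in PH cells, against 6.73 to 7.93 (median 7.40) in Mock (difference 2.74, SE 0.33, 6.66-fold, adjusted p = 1.51e-05). Art3, an arginine methyltransferase gene named after its values were seen, was at 7.46, 7.17 and 7.75 in dKDM2 cells and 4.40, 5.79 and 4.69 in PH cells (difference 2.50, SE 0.33, 5.66-fold, adjusted p = 5.14e-05). Its Mock values ran from 7.13 to 8.68 (median 8.26), so the dKDM2 arrays lay in the lower part of the Mock range and only the PH arrays below it.

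**Figure D3:**
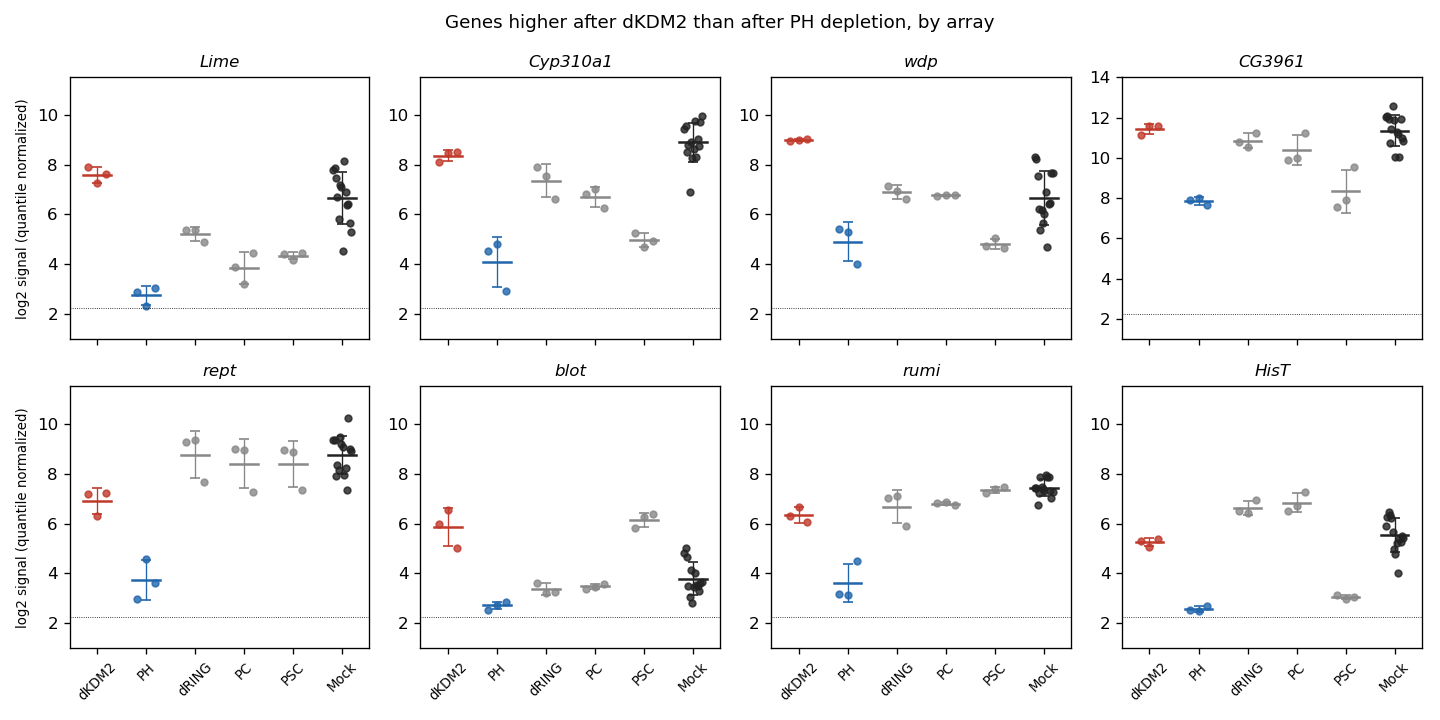
Log2 signal of 8 genes higher in dKDM2 than in PH cells, for each group from dKDM2 to Mock (points are arrays, bars the mean, whiskers the SD, the dotted line the lowest value). For Lime, Cyp310a1, CG3961 and HisT the dKDM2 points lie in the Mock range and the PH points below it. For rept and rumi both depletions lie below Mock, and for wdp and blot the Mock mean lies between them.

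The calls were also sorted by where Mock lay. These positions, and the pairs of calls against Mock here and in the next paragraph, were not counted over all genes tested. Genes picked for a gap between both depletions more easily have Mock between them, so the counts are descriptions. Of the 145 higher genes, the Mock mean was below both depletions in 46, between them in 71 and above both in 28. Of the 144 lower genes, it was below both in 61, between in 71 and above both in 12. Over all genes, 18.4% were called up and 14.7% down after dKDM2 depletion and 19.8% up and 15.4% down after PH depletion, each against Mock. Of the higher genes, 76 were called up after dKDM2 depletion alone and 37 were called down after PH depletion alone. Among the lower genes, 109 were called up after PH depletion alone and 19 were called down after dKDM2 depletion alone. A call in 1 contrast and not in the other is not a test of the difference, which here is the direct contrast of dKDM2 with PH. Both were called up against Mock in 13 higher and 9 lower genes, and both down in 13 higher and 4 lower genes.

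In 8 of the 289 genes the depletions were called against Mock in opposite directions, 5 of them up after dKDM2 and down after PH depletion. The gene wdp, whose product windpipe is a leucine-rich repeat membrane protein that modulates JAK/STAT signalling, had 8.96, 8.98 and 9.03 in dKDM2 cells and 5.43, 5.29 and 4.01 in PH cells, against 4.71 to 8.30 (median 6.45) in Mock (difference 4.08, SE 0.69, 16.9-fold, adjusted p = 0.00101). Every dKDM2 array was above every Mock array, while PH values overlapped the Mock range. The transporter-family gene blot had 5.99, 6.55 and 5.03 in dKDM2 cells and 2.56, 2.75 and 2.86 in PH cells, against 2.84 to 5.04 (median 3.57) in Mock (difference 3.13, SE 0.45, 8.78-fold, adjusted p = 0.000157). The other 3 were CG12768 (difference 3.05), plum (2.09) and CG14658 (0.26). For CG14658 all means were close to the lowest value, at 2.54 in dKDM2, 2.27 in PH and 2.33 in Mock cells, and PH differed from Mock by only -0.06.

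The 3 genes of the opposite kind were GstE2, CG6928 (difference -1.28) and clt (-1.25). GstE2, a glutathione S-transferase gene, had 3.15, 3.24 and 4.14 in dKDM2 cells and 8.02, 7.73 and 7.65 in PH cells, but ranged from 3.01 to 7.92 (median 6.05) in Mock (difference -4.29, SE 0.97, 19.6-fold, adjusted p = 0.0152). Both depletions overlapped the Mock range, and the call was lost without dKDM2 array 1 (adjusted p = 0.0515). CG14658 and clt were named after their values were seen.

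Of 36 gene lists of pathways and complexes, 26 had no called member and 10 had at least 1. Medians of the difference ran from -0.30 for lamellocyte markers to 0.75 for genes of DNA replication, beside 0 over all genes. No p is given for a list, and its count stands beside the 1.24% called higher and 1.23% called lower over all genes. At these shares a short list can easily hold no call, so a list without one is not set apart from all genes by that.

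In the list of Hox genes and other developmental regulators that Polycomb proteins silence, 76 were measured, of which 1 was higher and 4 lower in dKDM2 cells. The 4 were disco, cad, oc and odd (difference -0.41, SE 0.11, adjusted p = 0.045), and the higher one was the homeobox gene C15 (0.49, SE 0.11, adjusted p = 0.0152, with a second probe set at -0.01). For odd and C15 both means were below 3, and the differences shrank to -0.20 without PH array 1 and 0.27 without dKDM2 array 1. The median was 0, and 25 members lay at the lowest value on all 3 dKDM2 arrays and 18 on all 3 PH arrays. With the replicate block 1 was higher and 9 were lower.

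Genes of DNA replication had the highest list median. Of 28 measured, 2 were called higher and 0 lower, 22 lay above 0, and 9 had an unadjusted p under 0.05. The origin licensing factor gene Cdc6 had 7.81, 7.46 and 7.29 in dKDM2 cells and 5.43, 6.22 and 5.70 in PH cells, against 3.51 to 5.67 (median 4.73) in Mock (difference 1.74, SE 0.42, 3.33-fold, adjusted p = 0.0251). Prim2, the large primase subunit gene, had 6.45, 6.20 and 6.29 in dKDM2 cells and 3.56, 6.12 and 4.48 in PH cells, against 7.09 to 8.32 (median 7.61) in Mock (difference 1.59, SE 0.42, 3.02-fold, adjusted p = 0.0396). Cdc6 was above the Mock median and Prim2 below it in both depletions. Neither call survived median centring of the arrays in place of quantile normalization, where 0 of the 28 were called.

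Polycomb group genes themselves held no call. Of 19 measured, 0 were called by limma, 2 had an unadjusted p under 0.05, and differences ran from -0.99 to 0.75. Psc, a PRC1 subunit gene, had the lowest: 10.32, 10.22 and 10.17 in dKDM2 cells and 11.17, 11.15 and 11.36 in PH cells (SE 0.40, adjusted p = 0.242). These arrays did not overlap, both groups lay above the Mock range of 5.83 to 7.98 (median 6.70), and the difference did not pass the test. Pcl, a subunit associated with the methyltransferase complex PRC2, had the highest difference (0.75, adjusted p = 0.496), and the methyltransferase gene E(z) differed by 0.52 (adjusted p = 0.523). With the block 0 were called as well.

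Of 9 histone demethylase genes measured, 0 were called and 1 had an unadjusted p under 0.05. This was NO66, a JmjC demethylase gene, with 8.72, 8.66 and 8.04 in dKDM2 cells and 8.40, 7.21 and 6.23 in PH cells (difference 1.19, SE 0.37, adjusted p = 0.0941, and 0.0162 with the replicate block). Utx, the demethylase gene that acts on the Polycomb histone mark, averaged 4.30 and 3.49 in dKDM2 and PH cells, against 7.32 in Mock (difference 0.81, adjusted p = 0.774). Trithorax group genes, which oppose Polycomb silencing, had 0 calls of 21 and a median of 0.35, with 20 above 0 and 1 at an unadjusted p under 0.05.

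Energy metabolism genes had 0 calls in the fit without the block. Among 42 genes of oxidative phosphorylation the median was -0.20, with 37 below 0 and 1 at an unadjusted p under 0.05. Among 71 mitochondrial ribosomal protein genes the median was -0.14, with 5 at an unadjusted p under 0.05, and it turned to 0.01 with the values as deposited. Of the ribosomal genes 2 were called higher with the replicate block and 1 with deposited values. In both lists most members were below Mock after either depletion: 29 and 25 of the oxidative phosphorylation genes and 51 and 50 of the ribosomal ones were called down in dKDM2 and in PH cells.

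Single members were called in other lists. Among 22 blood cell markers the phagocytosis receptor gene eater was higher, with 7.73, 7.64 and 6.74 in dKDM2 cells and 4.21, 6.11 and 4.11 in PH cells (difference 2.56, SE 0.64, 5.89-fold, adjusted p = 0.0301). Nplp2, an abundant secreted peptide gene, was lower, with 13.87, 13.85 and 14.38 in dKDM2 cells and 15.14, 15.18 and 15.24 in PH cells (difference -1.15, SE 0.27, 2.22-fold, adjusted p = 0.02). Summed over the 22 markers, log2 signals ran from 173.8 to 178.8 in dKDM2 cells, from 161.4 to 169.9 in PH cells and from 162.4 to 188.7 in Mock. 16 of them had a mean above 4 in dKDM2 cells, against 15 in PH and in Mock cells. In bulk RNA fewer cells of a type and less RNA per cell cannot be told apart.

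ArgRS, the arginyl-tRNA synthetase gene, was the called member of 16 synthetase genes (difference 1.67, SE 0.35, 3.19-fold, adjusted p = 0.00962), and 14 of the 16 lay above 0. The signalling inhibitor gene Socs16D was higher among 10 JAK/STAT genes (1.39, SE 0.24, adjusted p = 0.00137), although its second probe set had a difference of 0. Lower were the autophagy gene Atg5 among 26 (-2.17, SE 0.54, adjusted p = 0.0301), the nuclear receptor gene Hr38 among 18 ecdysone response genes (-1.27, SE 0.30, adjusted p = 0.02, with a second probe set near 0) and the ethanolamine kinase gene eas among 21 lipid synthesis genes (-0.87, SE 0.19, adjusted p = 0.0147). The Hr38 difference was -0.63 as the mean over both probe sets and -0.62 without PH array 1, still called. Among 31 detoxification genes the calls were Cyp310a1 and Cyp6w1, in opposite directions.

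**Figure D4:**
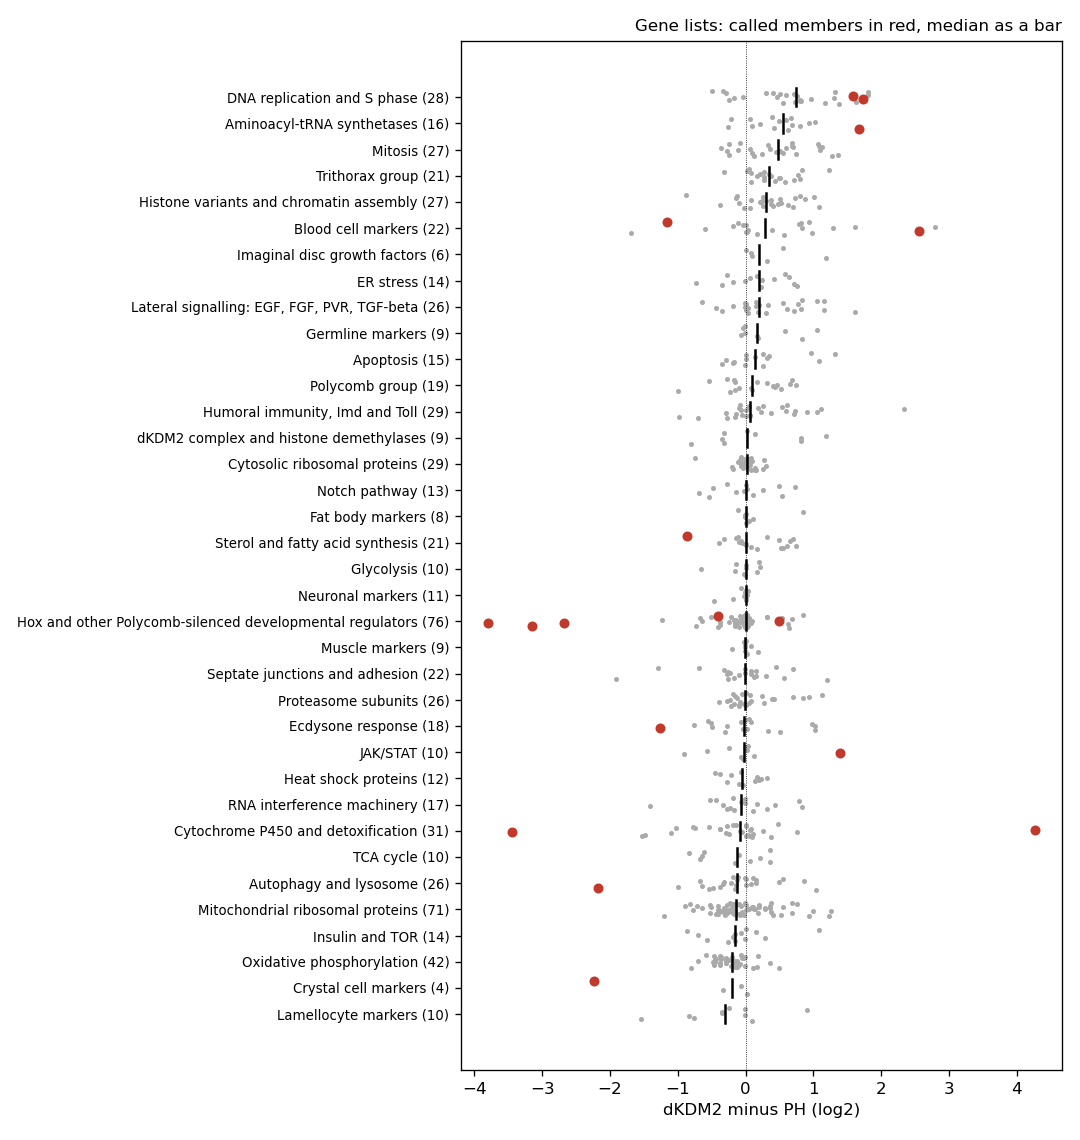
Difference of each measured member of 36 gene lists (x axis, dKDM2 minus PH, log2), with the called members in red, the list median as a black bar and the number of members in brackets. The medians lie between -0.30 and 0.75, and the calls farthest from 0 are in the developmental regulator list (disco, cad, oc) and the detoxification list (Cyp310a1, Cyp6w1).

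Called genes standing side by side on the chromosome were counted as well. Among neighbours in the order of tested genes, both were called in 5 pairs, 3 in the same direction and 2 in opposite directions. With 2.47% of all genes called, some such pairs arise without any link to position, so this count is a description. Those with both differences above 1 in size were CG8568 (1.34) and CG43658 (1.82), named after their values were seen. CG8568 lost its call in 5 of the 6 fits that left out 1 array and CG43658 in 4, and the second probe set of CG43658 had no difference beyond 0.01.

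Several called list members lost their call with 1 array left out. Without dKDM2 array 1 the limma adjusted p was 0.0793 for Cdc6, 0.095 for Prim2, 0.0847 for eater, 0.0639 for Nplp2, 0.0541 for eas, 0.0996 for odd, 0.0624 for C15, 0.0902 for Atg5 and, outside the lists, 0.053 for Axs. Leaving out dKDM2 array 2 ended the calls of Prim2 (0.0594), eater (0.0689), Nplp2 (0.0577), odd (0.0861) and Atg5 (0.079), and dKDM2 array 3 that of Prim2 (0.0572). Leaving out PH array 1 ended those of Cdc6 (0.0634), Prim2 (0.184, difference 1.01), eater (0.0773), odd (0.202) and Atg5 (0.0613), and PH array 3 those of Prim2 (0.0792), eater (0.078) and Atg5 (0.0512). Differences kept their direction in all of these.

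Of the 289 genes, 117 (51 higher, 66 lower) were called with each of the 6 arrays left out in turn. Under 18 alternatives that kept arrays beyond these 6 in the fit, 23 genes were called each time, 18 lower and 5 higher. An alternative among them kept only genes with a mean above 4 in dKDM2 or PH cells, and a gene left out counted as not called. Only 166 of the 289 could therefore be among the 23, so these counts are descriptions. The 18 lower genes included rib, noc, elB, disco, cad, oc, peb, Cyp6w1, Ac13E and CROT. All of those named but CROT passed that filter only through their PH mean. The 5 higher genes were Cyp310a1, rumi, Art3, CG4822 (difference 1.77) and CG9300 (1.86), the last pair named after their values were seen.

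Measures of array handling were compared between the same arrays. Hybridization controls in the deposited values were 12.81, 12.28 and 11.45 in dKDM2 cells and 13.08, 12.63 and 12.33 in PH cells, against 9.54 to 11.66 (median 10.57) in Mock. Poly-A spikes, control transcripts mixed into the RNA ahead of labelling, were 9.18, 8.48 and 7.15 in dKDM2 cells and 9.61, 9.41 and 9.09 in PH cells, against 2.96 to 7.12 (median 4.81) in Mock. For each, PH had the higher mean. Two-sided exact permutation tests without pairing gave p = 0.4 and p = 0.2, where 3 against 3 arrays cannot go below 0.1. In both measures every PH array was above the dKDM2 array of the same number, which these tests do not take into account. The actin 5-prime minus 3-prime signal, a sign of RNA integrity, was -2.43, -2.97 and -3.30 in dKDM2 cells and -2.15, -2.96 and -4.27 in PH cells (exact permutation p = 0.9), against -4.01 to -0.42 (median -1.49) in Mock, so PH array 3 lay below the Mock range and the others within its lower part. For the other 2 measures both depletions lay above most or all of the Mock arrays, so their separate contrasts with Mock also differ in these controls, whose part in those contrasts was not tested here. With the poly-A spikes as a covariate 251 genes were called between dKDM2 and PH.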

How the data were processed

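Total RNA was labelled in 1 cycle from 7 micrograms and hybridized to Affymetrix Drosophila arrays, from samples with RNA integrity numbers above 8, per the labels' protocols. The authors deposited log2 signals, 1 value per probe set and array. RMA and GCRMA are named without version or role, per the submitters' processing notes, and the genome build is not given in the sources used here. Array values carry no read depth, so the number of arrays limits the precision.

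Of 18952 probe sets 183 were controls. Array medians ran from 2.271 to 2.473, more than 0.1 apart, so the arrays were quantile normalized over the other 18769. Probe sets naming 1 gene were 13647, several genes 402 and none 4720. The annotation was old, and 13544 of the 13647 were matched by gene number to RefSeq's table for Release 6 plus ISO1 MT, which gave current names, gene order and length. Of 11983 genes, each taken by its brightest probe set, 305 at the lowest value on all 29 arrays were left out, which left 11678. One limma model (3.58.1, R 4.3.3) with 6 group means covered all arrays; eBayes used an intensity trend and tests were two-sided, with Benjamini-Hochberg adjustment over the 11678 genes. The script was tested on simulated data.

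The rule for naming genes took the RNAi targets, the 15 largest differences each way without overlapping arrays, the 6 largest called oppositely against Mock, the 6 with the smallest adjusted p, up to 4 called members per list (2 bright ones where none was called) and all Polycomb group and demethylase genes. Others are said to be named after their values were seen, and srp, Hml, PPO1, PPO2, lz and odd were added too. The comparison, lists and genes were chosen with earlier results of these data known.

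Same-numbered dKDM2 and PH arrays deviated together from their group means over 5490 genes (r = 0.332, 0.147 and 0.598, all above 0.1), so the numbers were taken to pair the arrays. dKDM2 array 2 correlated slightly more with PH array 1 (0.164). The reported calls, SEs and adjusted p come from the fit without the block, which leaves this pairing out, unless the block is named. Median SD within a group was 0.350 in dKDM2, 0.374 in PH and 0.571 in Mock. Alternatives were other scalings, sample sets, probe set rules, array weights, a spike covariate, the block and each array left out. Promoter motifs were not run, and no sequences were used here.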

Additional observations from a re-analysis of the deposited data

Results flagged for a closer look

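Probe sets naming several genes or none took no part in the gene counts. They were tested with limma in a separate fit of the same design over all non-control probe sets, with its own adjustment. Of 4771 such probe sets, 120 (2.52%) were called between dKDM2 and PH, 51 higher and 69 lower in dKDM2 cells. This is close to the 2.47% of the named genes, which came from another adjustment. This signal lies outside the comparison reported above. The largest negative difference among them was -5.05 (SE 0.20, mean 2.27 in dKDM2 cells, 7.32 in PH cells and 2.29 in Mock), the same on and off pattern as rib and noc, at a probe set with no single gene name here.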

How the results depend on the processing

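The number of genes called between dKDM2 and PH moved with the setting, from 0 to 1752 beside the 289 reported. It was 477 with values as deposited, 85 with median centring, 609 with the replicate block on 29 arrays, 1752 with that block on deposited values (added after seeing the data), 159 with dim genes filtered out, 89 with array weights, 109 with Mock and the 6 arrays, and 9 (limma, 1093 at an unadjusted p under 0.05) with the 6 arrays alone. The block on the 6 arrays alone called 0 by limma (1549 at an unadjusted p under 0.05, smallest adjusted p 0.191), and 172 genes also differed by more than 1. Leaving out 1 array gave 246 to 543 calls, past 1.5 times the reported count without dKDM2 3 (521), PH 1 (477) and PH 3 (543). Higher genes were 50.2% of the calls, against 44.7% with deposited values, 36.5% with median centring (which moves the median of all genes by -0.22), 22.5% with array weights, and 28.7% to 68.1% with 1 array left out. Each called gene named in the text kept its direction under every alternative run. Of 74 such genes limma lost 70 with the 6 arrays alone, 74 with the block on them, 40 with array weights, 27 with median centring, 26 with Mock and the 6 arrays, 11 with the spike covariate and 7 with deposited values. The block on 29 arrays also raised calls in the developmental list to 1 higher and 9 lower in the replication list to 4 higher, in the mitochondrial ribosomal and mitosis lists to 2 higher each, in the blood cell list to 2 higher and 1 lower, in the autophagy list to 2 lower, and to 1 among cytosolic ribosomal (lower), immunity and demethylase genes (higher). Sce differed by 0.259 with deposited values, with and without the block, and by 0.0433 with median centring (-0.156 reported), and by -1.01 to 0.371 with 1 array left out (-1.01 without dKDM2 3, where Sce was highest). Pc differed by 0.0706 with the spike covariate and by -0.387 to 0.0833 with 1 array left out. Neither was called under any setting. The cause of these shifts was not tested. Dim signals limit the small calls, since 85 genes had both means below 3. The motif comparison was not run.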
